A study of Drosophila melanogaster with 6 samples.

Results

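Notch, Wnt, Hedgehog, BMP and Hippo are the signalling routes by which neighbouring fly cells set each other's fate and growth, and the genes described here are 48 of their ligands, receptors, transducers, transcription factors and inhibitors. The genes were chosen by symbol, pathway by pathway, without regard to measured values in the rule itself. Of the 48 symbols, 47 were found among the 17617 gene identifiers of the data, which gave 9 Notch, 13 Wnt, 5 Hedgehog, 9 BMP and 11 Hippo genes. *Med*, the common Smad of the BMP route, had no matching identifier and was not analysed here.

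The study asked how hindgut enterocytes change when they express *RasV12*, an oncogenic Ras GTPase that stays switched on. Control flies carried byn-G4 tub-G80ts U-gfp, that is, a *byn-Gal4* driver active in hindgut enterocytes, a temperature-sensitive Gal80 repressor and a GFP reporter. The *RasV12* flies carried the same transgenes plus U-RasV12, so GFP was shared by both genotypes. The methods name a reference line as the basic control for such crosses, so the parental background on that side can differ as well and cannot be told apart from *RasV12*. Adult females a few days old were moved from a lower rearing temperature to 29°C for 7 days, which lifts the repression, and RNA was taken from pools of dissected hindguts, with 3 libraries per genotype. The transgenes act in enterocytes, whereas the dissected tissue also holds the visceral muscle around them, and the labels call the material enterocytes and muscle. The labels do not say that the 3 libraries came from separate cultures, so the p-values measure the spread between these libraries, which may be technical.

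As background, Notch is a receptor that is cut when a Delta or Serrate ligand on a neighbouring cell pulls on it, and its freed tail acts in the nucleus with Su(H) and Mastermind. Wnt ligands such as Wingless bind Frizzled receptors and spare beta-catenin from a destruction complex, Hedgehog binds Patched and thereby frees Smoothened, and the BMP ligand Dpp acts through paired receptor kinases and the Smad protein Mad. Hippo is a kinase cascade that keeps the growth-promoting coactivator Yorkie out of the nucleus. In the adult hindgut, Wingless and Hedgehog are known from the anterior boundary region next to the midgut, and most of these routes use their own targets, such as *fz3*, *ptc*, *Dad* and *ex*, as readouts.

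The libraries were 3′ mRNA-seq libraries, which read the end of each polyadenylated transcript. The deposited values are normalized counts, taken here as reads multiplied by 1 factor per library and rounded. Library totals ranged from 932389 to 1031380 normalized counts, and the recovered factors, which are estimates, imply about 686569 to 1048807 reads in the control and 988982 to 1402435 in the *RasV12* libraries. At this depth 3 reads equal 2.13 to 4.22 normalized counts, so low values are coarse, above all in control 1 and control 3. Log2 values of libraries of 1 genotype correlated across genes at 0.889 to 0.941. The hindgut transcription factor *byn* was present in every library, and stood at 299, 283 and 450 in the controls against 60, 144 and 97 with *RasV12*. Of 7 tested hindgut markers 3 fell (*byn*, *fkh* and *otp*), and *drm* rose, from 44, 58 and 32 to 270, 196 and 264. The summed level of the 9 markers listed was 782 to 1070 in control and 552 to 650 in *RasV12* libraries. The fall of *byn* by 1.82 on the log2 scale (adjusted p = 0.00153) concerns the gene whose regulatory region drives Gal4. Of 12 visceral muscle markers, 11 fell, and their summed level went from 11523 to 13178 in control down to 5064 to 5867 in *RasV12* libraries. The summed level of 8 fat body markers was 3976 to 10471 in control and 2114 to 4165 in *RasV12* libraries, and 3 of the 6 tested fell. Summed trachea markers were at 16 to 39 and 47 to 72, with the defining factor *trh* at 0, 3 and 3 against 0, 0 and 0 and 1 of 3 tested (*btl*) called higher. Of 6 stem cell and enteroendocrine markers, the stem cell marker *esg* had no matching identifier. The 5 others (*pros*, *Tk*, *AstA*, *AstC* and *NPF*), which are enteroendocrine genes, summed to 5 to 44 and 446 to 635. Among them 1 of 3 tested was called higher, the peptide gene *NPF*, and stem cells were not measured by this list. The median change of the 3 tested was 0.23 on the log2 scale, so the rise of the sum does not describe the list as a whole. The sum of 6 hemocyte markers was 37 to 92 in control and 82 to 102 in *RasV12* libraries, mostly from *crq*, at 59, 36 and 83 against 100, 96 and 79. The hemocyte-defining *NimC1* and *eater* were at 0 in all 6 libraries, and *Hml* was at 0, 0 and 0 against 1, 1 and 1. The part of these cell types in the results below was not tested, and in such bulk samples fewer cells of a type and less RNA per cell cannot be told apart.

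Genes were compared with limma on log2(value + 1), and 7155 genes with a value above 9 in at least 1 library were tested. A gene is said to have risen or fallen where the p-value adjusted over all of these by the Benjamini-Hochberg method was under 0.05. Fold changes are on the log2(value + 1) scale, *RasV12* minus control, which understates the change of low genes, and library values are given in the order of replicates 1, 2 and 3.

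The genes called were ligand and receptor genes and the gene of an enzyme that modifies a receptor. The Wnt ligand genes *wg* and *Wnt6*, the Wnt receptor gene *fz3*, the receptor gene *N*, the Notch-modifying enzyme gene *fng* and the ligand gene *hh* rose in *RasV12* hindguts, and the Notch ligand gene *Ser* fell. No BMP and no Hippo gene was called by limma. At an unadjusted p under 0.05 and a log2 change above 1 either way, the counts were 1 of 7 and 0 of 8, against 22.2% of all genes. Counts this small do not set these genes apart. Of the 47 genes, 37 were tested, and the 10 others (*Wnt4*, *Notum*, *arr*, *smo*, *cos*, *sax*, *brk*, *ft*, *fj* and *ex*) never exceeded 8 normalized counts. Among the 37, 7 were called (18.9%), 6 higher and 1 lower, against 16.7% of all genes tested, of which 9.04% were called higher and 7.7% lower. Higher genes made up 54.0% of all calls, a share that was 49.2% when values were divided by library totals and 44.6% with limma-voom on implied reads. The members as a group were thus called about as often as any tested gene. Their median log2 fold change was 0.09, beside 0.02 over all genes. Of the 37, 7 passed the filter only through the *RasV12* libraries (*neur*, *N*, *fng*, *Su(H)*, *wg*, *Wnt6* and *fz*). Another 5 passed only through the control libraries (*Dl*, *nkd*, *ptc*, *dpp* and *ds*). The called genes *N*, *fng*, *wg* and *Wnt6* were thus tested only because they were above 9 in *RasV12*. Under the looser threshold of the study, an unadjusted p under 0.05 and a log2 change above 1 either way, *fz* and *dpp* were added, which made 7 higher and 2 lower (24.3%), against 22.2% of all genes (12.2% higher, 9.99% lower). The 2 genotypes did not overlap in 11 of the 37 (29.7%), 7 higher and 4 lower in *RasV12*, against 32.9% of all genes (17.7% higher, 15.3% lower). The calls of *fng*, *wg*, *Wnt6* and *fz3* held under each of the 17 alternative settings tried, which reuse the same libraries and are not separate support.

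**Figure D1:**
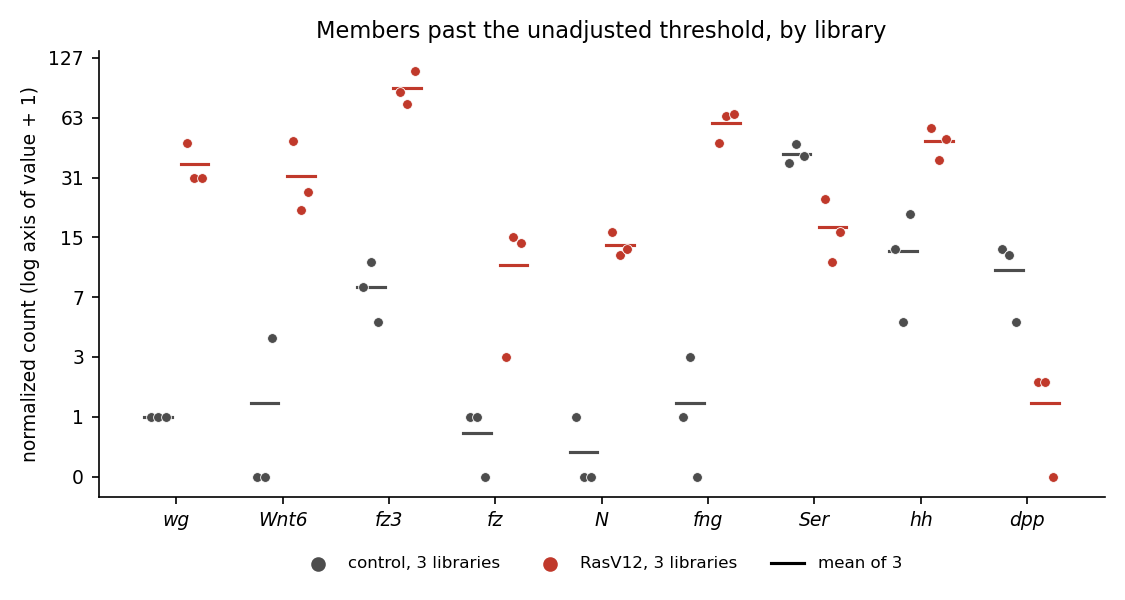
Normalized counts (log axis of value + 1) of the 9 members past the study's unadjusted threshold, 1 point per library (3 control, 3 *RasV12*), with bars at the group means. In none of the 9 do the points of the 2 genotypes overlap, which their selection by p-value favours. Among all genes tested 32.9% do not overlap. *wg*, *Wnt6*, *fz*, *N* and *fng* sit at 0 to 4 in every control library, and *Ser* and *dpp* are lower in *RasV12*.

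**Figure D2:**
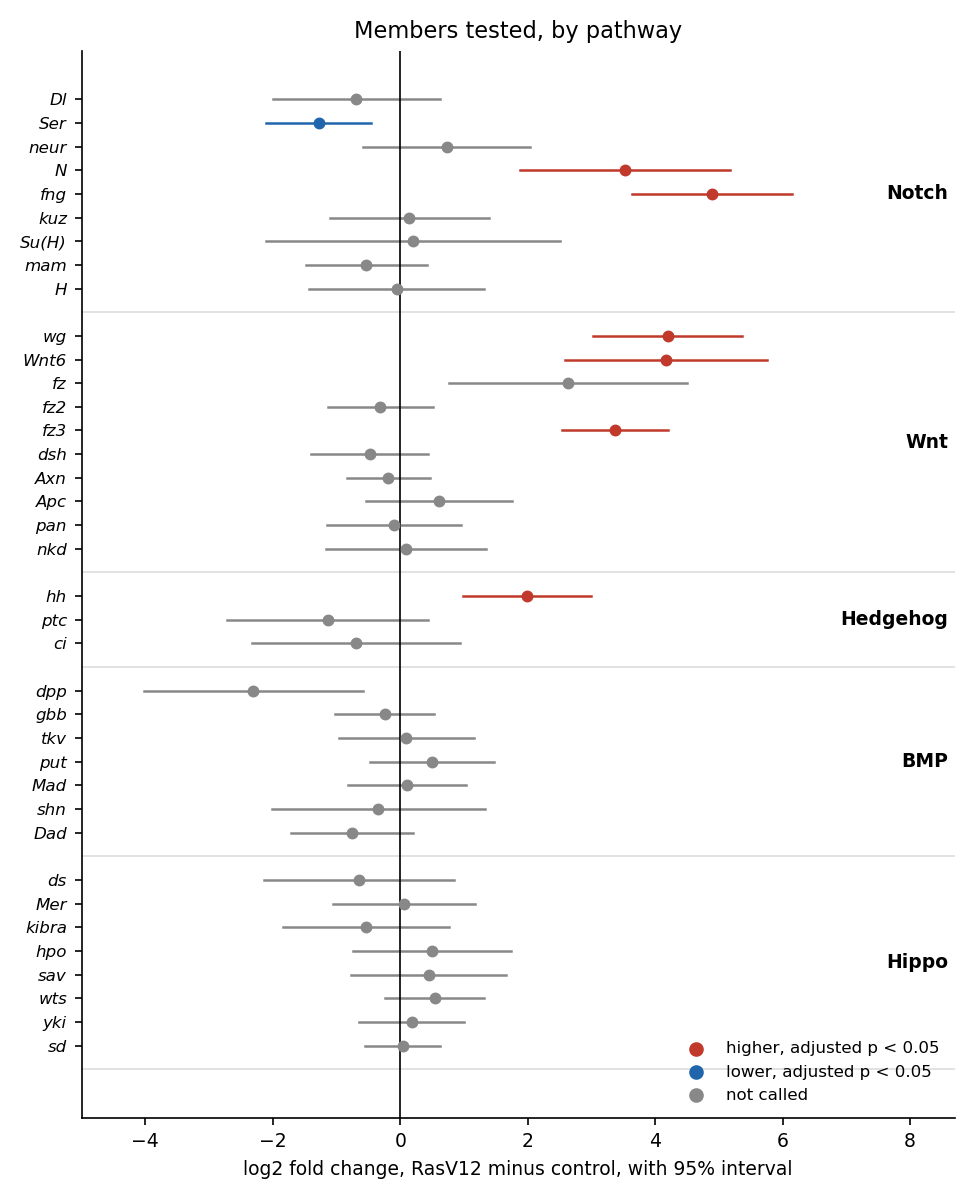
Log2 fold change (*RasV12* minus control) with its 95% interval from limma for the 37 members tested, grouped by pathway and coloured by call at an adjusted p under 0.05. The 6 rises are in the Notch, Wnt and Hedgehog groups, the 1 fall is *Ser*, and the intervals of most other members span more than 1 log2 unit.

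The Wnt ligands rose from the edge of detection. *wg* (FBgn0284084), which encodes Wingless, the main fly Wnt ligand, was at 1, 1 and 1 normalized counts in control and at 47, 31 and 31 in *RasV12* libraries. Every *RasV12* library was above every control library, and the spread within each genotype was small beside the gap. The log2 fold change was 4.20 (SE 0.54, adjusted p = 0.000166). In implied reads, *wg* had 3 over the control and 138 over the *RasV12* libraries, a depth-adjusted ratio of 31.7 with a 95% interval of 10.6 to 156 that covers counting error only. *Wnt6* (FBgn0031902), another Wnt ligand gene, was at 0, 0 and 4 in control and at 48, 21 and 26 in *RasV12* libraries. Again the groups did not overlap, although the *RasV12* libraries differed among themselves more than for *wg*. Its log2 fold change was 4.17 (SE 0.74, adjusted p = 0.00173), with 3 against 124 implied reads and a ratio of 28.5 (9.53 to 140). These fold changes depend on the pseudocount for such low controls, and with 5 in place of 1 they were 2.76 for *wg* and 2.52 for *Wnt6*, still called.

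The 2 genes are neighbours in the fly Wnt cluster on chromosome arm 2L, where *Wnt4*, *wg*, *Wnt6* and *Wnt10* follow one another. In the BDGP6.54 annotation *wg* lies at chr2L:7307159-7316265 and *Wnt6* at chr2L:7333714-7352542, both on the plus strand, 17.4 kb apart with 1 annotated gene between them. *Wnt4* lies on the minus strand at chr2L:7255419-7277171, 30.0 kb before *wg* with no gene between. It was at 3, 6 and 1 in control and 0, 3 and 2 in *RasV12* libraries, so the groups overlapped at values too low to be tested. *Wnt10*, which is not among the 48 genes, starts 10.8 kb after *Wnt6* and was at 0 in all 6 libraries. Of the 4 cluster genes, the inner pair rose and neither outer gene was seen above 6.

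**Figure D3:**
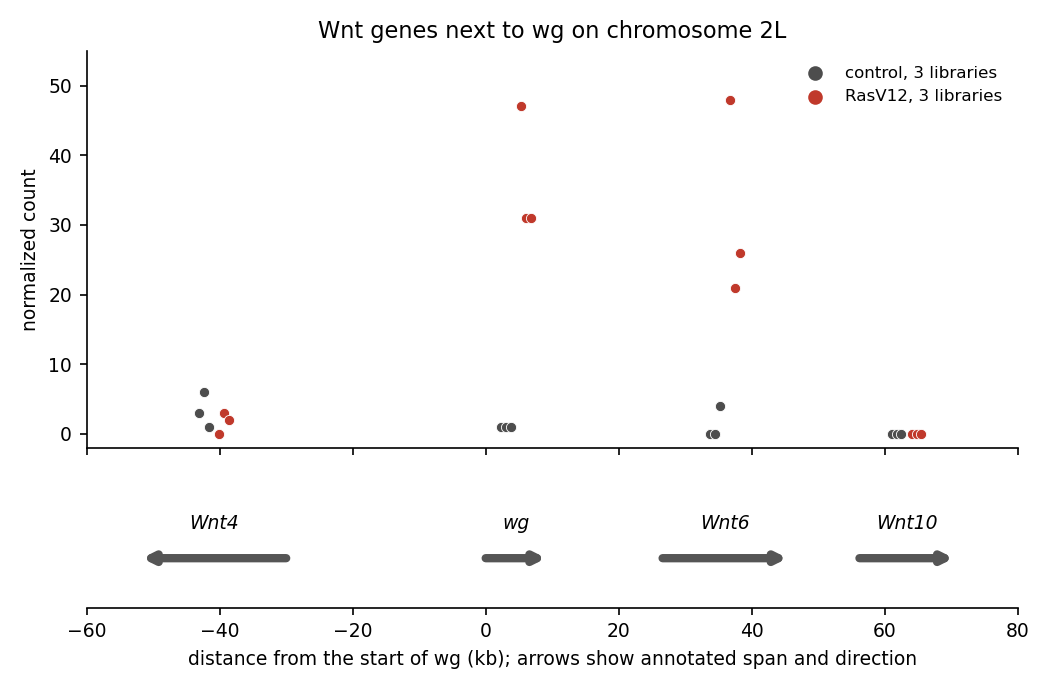
Upper panel, normalized counts of *Wnt4*, *wg*, *Wnt6* and *Wnt10* in the 3 control and 3 *RasV12* libraries, each placed over its gene; lower panel, annotated span and direction of each gene by distance from the start of *wg* in kb. The *RasV12* points of *wg* and *Wnt6* lie at 21 to 48, whereas every point of *Wnt4* and *Wnt10* lies at 6 or below.

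Among the Wnt receptors, *fz3* and *fz2* parted. *fz3* (FBgn0027343, chrX:769945-784222), a Frizzled family receptor gene and a known target of Wingless signalling, was at 8, 11 and 5 in control and at 85, 74 and 109 in *RasV12* libraries. It was detected in every library, at low values in control, and the lowest *RasV12* value was far above the highest control value. Its log2 fold change was 3.37 (SE 0.39, adjusted p = 6.04e-05). *fz* (FBgn0001085), the receptor of both canonical Wnt and planar polarity signalling, was at 1, 1 and 0 against 3, 15 and 14. The groups did not overlap, but *RasV12* library 1 was close to the controls, and the log2 fold change of 2.64 (SE 0.87) missed the threshold (adjusted p = 0.0534). Over the alternatives the adjusted p of *fz* ranged from 0.0396 to 0.257, and it was called in 3 of them, 1 being the fit without *RasV12* library 1 (0.0496). In implied reads *fz* had 2 against 38, a ratio of 13.1 (3.39 to 112). The gene *CG13482* lies within the span of *fz* on the same strand, away from its 3′ end, and stood at 66, 44 and 16 against 360, 186 and 208, and its part in the *fz* value was not tested. *fz2*, the other main Wingless receptor, was at 42, 56 and 60 against 73, 38 and 26, with overlapping groups (log2 fold change −0.31, SE 0.38, adjusted p = 0.623). The co-receptor gene *arr* was at 1, 4 and 3 against 3, 3 and 1.

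The intracellular Wnt members *dsh*, *Axn*, *Apc* and *pan* were not called. *dsh*, the transducer below Frizzled, was at 18, 15 and 17 against 13, 11 and 11, without overlap but with a log2 fold change of only −0.48 (SE 0.43, adjusted p = 0.485). *Axn*, a scaffold of the destruction complex, was at 48, 75 and 54 against 55, 53 and 45, and its 95% interval of −0.84 to 0.46 stayed within 1 log2 unit. *Apc*, another part of that complex, was at 7, 14 and 8 against 11, 10 and 28, and *pan*, the TCF transcription factor gene of the route, at 18, 12 and 9 against 14, 8 and 14. The feedback genes of the route were low. *nkd*, a feedback inhibitor, was at 14, 7 and 4 in control and 8, 8 and 8 in *RasV12* libraries (log2 fold change 0.09, SE 0.59, adjusted p = 0.934), and its sign turned without control library 3. *Notum*, which encodes a secreted enzyme that inactivates Wnt ligands, was at 0, 0 and 0 against 1, 2 and 2. Every *RasV12* library was above the controls, but those values are under the count of 3 reads, so no fold is given. In the fit without a filter *Notum* had an unadjusted p of 0.0107 and an adjusted p of 0.0834, the only one of the 10 untested members with an unadjusted p under 0.05.

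In the Notch route *N* and *fng* rose and the ligand gene *Ser* fell, while the other members were not called. *N* (FBgn0004647, chrX:3134870-3172221), the receptor gene itself, was at 1, 0 and 0 in control and at 16, 12 and 13 in *RasV12* libraries. The *RasV12* libraries lay close together, and the controls held 1 implied read against 53, a ratio of 36.6 (6.28 to 1470). The log2 fold change was 3.53 (SE 0.77, adjusted p = 0.00654), which fell to 1.81 with a pseudocount of 5. The call was lost without *RasV12* library 1 (adjusted p = 0.0612) or library 3 (0.0542), at the upper end of a range from 0.00331 over the alternatives. *fng* (FBgn0011591, chr3L:20925891-20949512) encodes Fringe, the glycosyltransferase that modifies Notch and shifts its response from Serrate towards Delta. It was at 1, 3 and 0 in control and at 47, 64 and 66 in *RasV12* libraries, far apart in each library. Its log2 fold change was 4.89 (SE 0.58, adjusted p = 7.99e-05), the largest of the 37, or 3.35 with a pseudocount of 5, and it had 4 against 219 implied reads, a ratio of 37.8 (14.5 to 140).

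*Ser* (FBgn0004197, chr3R:27172090-27194267), the Serrate ligand gene, was at 37, 46 and 40 in control and at 24, 11 and 16 in *RasV12* libraries. The groups did not overlap, and the log2 fold change was −1.28 (SE 0.39, adjusted p = 0.0362). This call was the least stable of the 7: it was lost in 8 of 17 alternatives, with adjusted p-values from 0.0307 to 0.143, the highest without *RasV12* library 2. It was lost without control library 1 (0.0619), 2 (0.108) or 3 (0.0502) and without *RasV12* library 3 (0.0887), and with no filter on low values (0.0544). *Dl*, the Delta ligand gene, was at 14, 6 and 9 against 8, 6 and 3, with overlapping groups (log2 fold change −0.69, SE 0.61, adjusted p = 0.483). *neur*, a ubiquitin ligase that activates the ligands, was at 8, 3 and 5 against 9, 6 and 13, and *kuz*, the protease that cuts Notch at the surface, at 21, 5 and 20 against 10, 25 and 12. The nuclear genes varied widely between libraries of 1 genotype. *Su(H)*, the DNA-binding partner of Notch, was at 0, 3 and 7 against 11, 1 and 1, *mam*, its coactivator, at 18, 42 and 27 against 17, 29 and 13, and *H*, its co-repressor, at 24, 8 and 19 against 43, 6 and 12. None of these was called. Their intervals all included a change of 1 log2 unit, so a change of that size could not be set apart from none.

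Of the 3 Hedgehog members tested, the ligand gene was called. *hh* (FBgn0004644, chr3R:23128169-23141906), the ligand gene, was at 13, 5 and 20 in control and at 56, 38 and 49 in *RasV12* libraries, without overlap. Its log2 fold change was 1.99 (SE 0.47, adjusted p = 0.0105). The call was lost only without *RasV12* library 1 (adjusted p = 0.0594), the upper end of a range that began at 0.00104. *ptc*, which encodes the Hedgehog receptor and is a standard target of the route, was at 14, 4 and 9 in control and at 4, 6 and 1 in *RasV12* libraries. The groups overlapped, and the fitted value was below 0 (log2 fold change −1.14, SE 0.73, adjusted p = 0.321). Its 95% interval ran from −2.72 to 0.44. *ci*, the transcription factor gene, was at 4, 7 and 13 against 5, 1 and 10. *smo*, the transducer below Patched, was at 8, 0 and 4 against 2, 1 and 6, and *cos*, a kinesin-like scaffold, at 0, 0 and 0 against 0, 3 and 1, both too low to be tested.

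The BMP genes held 1 candidate fall. *dpp* (FBgn0000490, chr2L:2428372-2459823), the main BMP ligand gene, was at 13, 12 and 5 in control and at 2, 2 and 0 in *RasV12* libraries. The groups did not overlap, and the log2 fold change of −2.31 (SE 0.80) missed the threshold in limma (unadjusted p = 0.0122, adjusted p = 0.064). It passed in 1 alternative, without a variance trend (0.0451), and its highest adjusted p was 0.222. *gbb*, the other BMP ligand gene, was at 35, 52 and 35 against 24, 49 and 32, with overlap. *Dad*, a Dpp target and inhibitory Smad gene, was at 28, 18 and 19 against 16, 14 and 8, lower in every *RasV12* library but not called (log2 fold change −0.76, SE 0.44, adjusted p = 0.275). *brk*, the repressor that Dpp signalling switches off, was at 1, 3 and 5 against 1, 2 and 1.

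The receptor and Smad genes of the route overlapped between the genotypes. The type I receptor genes were at 8, 9 and 12 against 10, 9 and 12 for *tkv* and 6, 6 and 7 against 2, 7 and 3 for *sax*. *put*, the type II receptor gene, was at 20, 27 and 21 against 15, 44 and 50, where library 1 stood apart from the 2 other *RasV12* libraries. *Mad*, the receptor-activated Smad gene, was at 17, 14 and 23 against 19, 28 and 13, and *shn*, a zinc finger cofactor of Mad, at 7, 7 and 15 against 13, 17 and 1. None was called under any alternative.

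None of the 8 tested Hippo members was called in the fit or under any alternative, and in all 8 the genotypes overlapped. Beside the 16.7% called and 32.9% without overlap among all genes, a count of 0 in 8 is too small a number to set them apart. *ds*, a cadherin ligand of Fat, was at 8, 11 and 3 against 3, 6 and 3, and *ft*, its receptor, at 4, 0 and 1 against 0, 0 and 0. *kibra*, an upstream activator and Yorkie target, was at 6, 11 and 9 against 4, 10 and 4 (log2 fold change −0.54, SE 0.60, adjusted p = 0.594). The other upstream Yorkie targets, *ex* and the kinase gene *fj*, were at 7, 3 and 4 against 4, 5 and 1 and at 3, 0 and 0 against 0, 0 and 0, too low to be tested. *Mer*, which encodes the Merlin protein that acts with Expanded and Kibra, was at 28, 31 and 64 against 17, 89 and 41, a wide spread in both genotypes.

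The core cassette was measured at low to moderate values. The kinase genes *hpo* and *wts* were at 4, 8 and 13 against 16, 12 and 7 and at 32, 21 and 19 against 40, 32 and 32, and the scaffold gene *sav* at 4, 9 and 15 against 15, 8 and 13. *yki*, the coactivator gene, was at 25, 24 and 25 in control and 33, 18 and 37 in *RasV12* libraries (95% interval of the log2 fold change −0.64 to 1.00). *sd*, the DNA-binding partner of Yorkie, was at 108, 88 and 94 against 116, 114 and 73. Its 95% interval of −0.56 to 0.63 is among the narrowest of the members and lies within 1 log2 unit. Of the 30 members not called, 28 had an interval that included a change of at least 1 log2 unit, the exceptions being *sd* and *Axn*, so for the rest the absence of a call does not show that the level was the same.

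**Figure D4:**
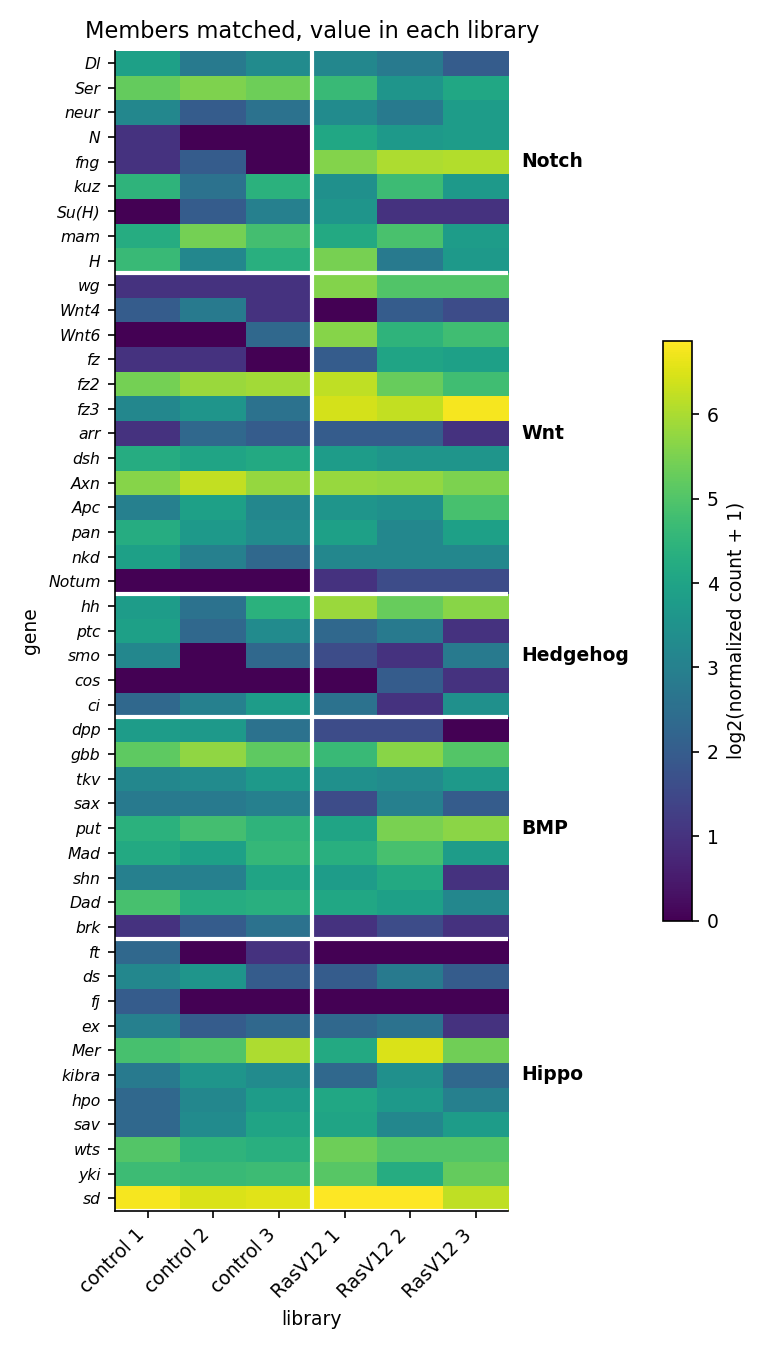
Log2(normalized count + 1) of the 47 matched members in the 6 libraries (columns), ordered by pathway and role, with the colour scale beside it and a white line between the genotypes. The rows of *fng*, *N*, *wg*, *Wnt6* and *fz3* brighten across the line, *dpp* darkens, and the Hippo rows show no such step.

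Beyond the members, 124 further genes of the same routes, all found in the data, gave 81 tested genes, of which 5 rose and 7 fell (14.8%, against the 16.7% of all genes). Their median log2 fold change was 0.25, beside 0.02 over all genes. Past the looser threshold 10 of the 81 were higher and 10 lower (24.7%), against 22.2% of all genes. Of the 81, 3 passed the filter only through the *RasV12* libraries and 3 only through the control libraries. Of 17 tested Notch pathway genes 1 was called (5.88%, against 16.7% of all genes), and it rose. *Psn*, the catalytic subunit of the gamma-secretase that makes the last cut in Notch, was at 20, 24 and 19 in control and 53, 69 and 99 in *RasV12* libraries (log2 fold change 1.72, adjusted p = 0.00354). It did so in every alternative. The 3′ end of *Psn* overlaps *mRpL15* on the other strand, which stood at 18, 29 and 33 against 16, 6 and 10. The subunit genes *nct* and *pen-2* were at 8, 10 and 3 against 11, 28 and 17 and at 8, 7 and 15 against 31, 19 and 24, above the controls but not called (adjusted p = 0.13 and 0.0749). Both were past the looser threshold, which 4 of the 17 Notch pathway genes passed, all higher (23.5%, near the 22.2% of all genes). The remaining subunit gene *aph-1* was at 22, 20 and 8 against 18, 43 and 13, with overlap (adjusted p = 0.583). The E(spl) genes, the standard Notch targets, gave little signal. Of 11 of them 6 were at 0 in all libraries, and the only one tested, *E(spl)mbeta-HLH*, was at 15, 19 and 3 against 9, 10 and 10, while the rest did not exceed 4. Whether the rise of *N* and *fng* went with a change of these targets could not be seen at this depth.

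Of 21 tested Wnt pathway genes, 3 were called (14.3%, near the 16.7% of all genes), all kinase genes that fell. *sgg*, the GSK3 kinase of the destruction complex, was at 240, 222 and 420 against 138, 97 and 83 (log2 fold change −1.44, adjusted p = 0.00468). The noncoding gene *lncRNA:CR45197* overlaps *sgg* on the same strand, away from its 3′ end, at 72, 51 and 100 against 46, 42 and 40. Its part in the *sgg* value was not tested. *dco*, a casein kinase that also counts among the Hippo genes, was at 72, 60 and 98 against 43, 26 and 28 (−1.23, adjusted p = 0.0225). *nmo*, the Nemo-like kinase gene, was at 22, 17 and 33 against 13, 6 and 2 (−1.86, adjusted p = 0.0455), and it was called in 7 of 17 alternatives. *dco* was called in 13 of 17, lost without a variance trend, control library 3 or *RasV12* library 2 or 3 (adjusted p up to 0.0935), and *sgg* in 16 of 17, lost without a variance trend (0.0577). All 3 were lower in every *RasV12* library than in any control library, which selection by adjusted p favours, beside 32.9% of all genes without overlap.

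Of 10 tested Hedgehog pathway genes, 1 rose and 1 fell (20.0% called, near the 16.7% of all genes). *Gprk2*, a kinase gene that acts on Smoothened, was at 87, 69 and 60 against 18, 14 and 7 (−2.46, adjusted p = 0.000853), the largest fall among the pathway genes called, and it was called in every alternative. *rasp*, the acyltransferase gene needed to make active Hedgehog, was at 25, 44 and 24 against 58, 61 and 68 (1.04, adjusted p = 0.0492), and it held in only 5 of 17 alternatives. The gene *Asciz* overlaps *rasp* on the other strand near its 3′ end, at 3, 1 and 1 against 1, 0 and 4.

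Of 15 tested BMP and activin genes 1 rose and 2 fell (20.0% called, near the 16.7% of all genes). *daw*, an activin-like ligand gene, was at 13, 21 and 8 against 32, 51 and 60 (1.75, adjusted p = 0.0136). *myo*, the myoglianin ligand gene, was at 53, 36 and 48 against 27, 15 and 13 (−1.32, adjusted p = 0.0314). *Smox*, the Smad gene of the activin route, was at 190, 221 and 224 against 102, 91 and 117 (−1.03, adjusted p = 0.00928), and its 3′ end overlaps *CG2120* on the other strand, at 8, 20 and 8 against 1, 0 and 1. Every *RasV12* library was on one side of all controls in each of the 3, which selection by adjusted p favours, beside 32.9% of all genes without overlap. The calls were lost in 5 of 17 alternatives for *myo* (adjusted p up to 0.111, without a variance trend or without control library 1 or 3 or *RasV12* library 2 or 3). *daw* was lost without *RasV12* library 2 or 3 (up to 0.0723), and *Smox* without a variance trend or *RasV12* library 2 (up to 0.0625). Past the looser threshold 1 was higher and 5 were lower (40.0%), against 22.2% of all genes (12.2% higher, 9.99% lower). The falls this added were *wit*, a type II receptor gene at 17, 6 and 11 against 1, 4 and 4, *salr*, a Dpp target gene at 4, 6 and 15 against 0, 1 and 0, and *Snoo*, a Smad-binding gene at 13, 11 and 24 against 7, 3 and 4. These 3 passed the filter only through the control libraries, so they were tested only because they were above 9 there. Myoglianin is known from muscle and glia, and the muscle markers fell in the same libraries. Their part in the fall of *myo* was not tested.

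Of 22 tested Hippo pathway genes, 2 rose and 2 fell (18.2% called, near the 16.7% of all genes), with *dco* among the latter. *Wbp2*, whose product binds Yorkie, was at 243, 321 and 335 against 521, 586 and 633 (0.96, adjusted p = 0.00801), and only the fit without a variance trend lost it (0.0838). *Pez*, a phosphatase gene whose product binds Kibra, was at 1, 3 and 1 against 13, 9 and 11 (2.24, adjusted p = 0.0394), called in 8 of 16 alternatives. *Pez* passed the filter only through the *RasV12* libraries, so it was tested only because it was above 9 there. *mask*, a Yorkie cofactor gene, was at 122, 124 and 84 against 70, 50 and 30 (−1.18, adjusted p = 0.0293), called in 12 of 17. The Yorkie targets *Diap1*, an apoptosis inhibitor gene, and *Myc*, a growth regulator gene, were at 76, 137 and 127 against 132, 138 and 148 and at 115, 108 and 158 against 356, 177 and 90, both with overlap and not called.

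**Figure D5:**
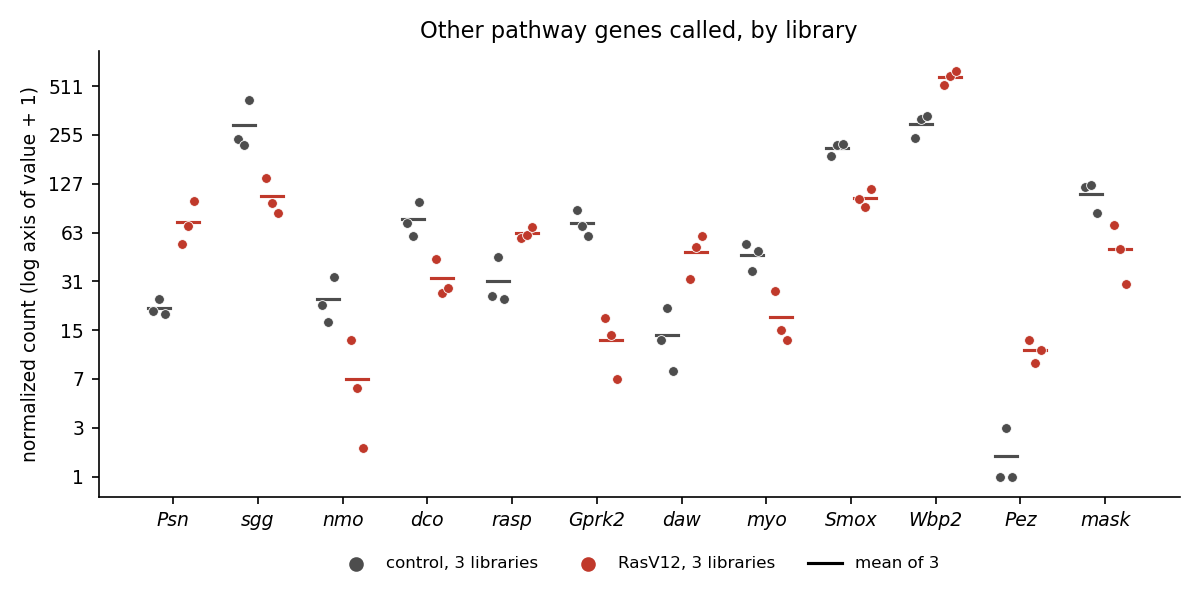
Normalized counts (log axis of value + 1) of the 12 further pathway genes called at an adjusted p under 0.05, 1 point per library (3 control, 3 *RasV12*), with bars at the group means. *Psn*, *rasp*, *daw*, *Wbp2* and *Pez* are higher in *RasV12*, and the other 7 are lower. *Pez* passed the filter only through the *RasV12* libraries. The 2 genotypes do not overlap in any of them, which their selection by adjusted p favours. Among all genes tested 32.9% do not overlap.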

How the data were processed

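The authors sequenced QuantSeq 3′ mRNA libraries on an Ion Proton and aligned reads to dm6 with hisat2 and then bowtie2. Gene counts were tested through metaseqR2 with DESeq and its utr parameter, while versions and the use of strand are not given in the sources used here. The values the authors deposited are a per-gene signal, taken here as each library's reads scaled by 1 factor and rounded to whole numbers. The factors were recovered from which whole numbers a library contains, and implied reads are values divided by them. They rest on the premise of 1 factor and are estimates. The fitted factor left a share of 0.023 to 0.588 of a library's pattern of whole numbers unexplained.

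All 6 libraries entered a limma fit (version 3.58.1, R 4.3.3) of log2(value + 1) with a trended prior variance. Tests were two-sided, and p-values were adjusted by the Benjamini-Hochberg method over 7155 genes with a value above 9 in at least 1 library, of 11086 genes with any value. The procedure was tested on simulated data. Names and positions came from the Ensembl 115 annotation of BDGP6.54, which named 17520 of 17617 identifiers. Counting intervals are exact at 95% only with the implied reads taken as given. Full statistics were set for members past either threshold and for main ligands, receptors and targets; other pathway genes were named where called, or where chosen after their values were seen (*nct*, *pen-2*, *aph-1*, *wit*, *salr*, *Snoo*, *Diap1*, *Myc* and *E(spl)mbeta-HLH*). The members, lists and tests were chosen with earlier results of these data known. Alternatives were pseudocounts, filters, scalings, variance models, a replicate block and each library left out.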

Additional observations from a re-analysis of the deposited data

How the results depend on the processing

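Over 17 alternatives, members called higher numbered 5 to 7 and members past the looser threshold 7 to 10, against 6 and 9. The member called lower, *Ser*, gave counts of 0 with no filter and 0 under a replicate block, and 0 to 1 when each library was left out. Without a variance trend *Ser* was also lost (adjusted p = 0.0653) and *dpp* took its place. Calls over all genes went from 1198 to 704 without a variance trend, and ranged from 642 (without *RasV12* library 2) to 1292 (without control library 3) when each library was left out. Further pathway genes called went from 12 to 5 without a variance trend and ranged from 4 (without *RasV12* library 2) to 10, with 7 without control library 1 and 6 without *RasV12* library 3. The log2 fold change of *nkd* turned from 0.094 to −0.284 without control library 3 and was at −0.284 to 0.094 when each library was left out. The cause of these shifts was not tested. Libraries of the 2 genotypes with the same number did not deviate together (correlations −0.046, 0.004 and −0.012), and a fit with that replicate block gave 1058 calls and an adjusted p of 0.0549 for *Ser*. The scalings tried moved the median of all genes by less than 0.1 on the log2 scale. limma-voom on implied reads was added after the data were seen. Tests on raw counts were not run, because implied reads are estimates and exact whole reads were not recovered for nearly all genes, and a planned motif search was not run, since no sequence tables were used here. A filter of 10 in 3 libraries dropped the lowest members, which then have no value. Members with values under about 20 are limited by depth.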
